A study of Caenorhabditis elegans with 2 samples.

Results

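The Hedgehog-related and patched-related genes of *Caenorhabditis elegans* were examined for nearby binding of the transcription factor ELT-3. Members were all protein-coding genes whose Ensembl name on WBcel235, the assembly also called ce11, begins with wrt-, grd-, grl-, ptr- or ptc-, together with hog-1 and qua-1. The rule gave 85 of 19973 coding genes. Of these, 59 were ligand-like, made up of 10 wrt, 16 grd and 31 grl genes with hog-1 and qua-1, and 26 were patched-like, made up of 24 ptr genes with ptc-1 and ptc-3. The rule selects members by name alone and uses no binding value, though earlier results of these data were known when it was chosen.

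In flies and vertebrates, Hedgehog is a secreted signal that is cut from a precursor by its own C-terminal Hog module, and Patched is the membrane receptor that it binds and inhibits, which frees Smoothened from inhibition by Patched. The nematode has no clear Hedgehog and no Smoothened, but it carries large families of secreted proteins that share the Hog module or one of several cysteine-rich N-terminal domains. These are the warthog (wrt), groundhog (grd), ground-like (grl), quahog (qua-1) and hog-only (hog-1) genes. It also carries many Patched relatives with a sterol-sensing domain, the ptr and ptc genes, several of which act in molting, osmotic control or cytokinesis. Many members of both families are expressed in the epidermis, the tissue in which the GATA factor ELT-3 acts.

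Chromatin immunoprecipitation and sequencing (ChIP-seq) was done on whole first-stage (L1) larvae of mixed sex from strain OP75, genotype unc-119(ed3) III; wgIs75, in which wgIs75 is a transgene carrying tagged elt-3. The libraries, biological replicates 1 and 3, form the single group. A note on replicate 3 describes a C-terminal GFP-FLAG tag on ELT-3, and the labels speak of eGFP-elt-3 but give elt-3 in the antibody field. Sonication with a microtip is named for replicate 3, and no fragmentation method was found in the labels of replicate 1. Both libraries came from this 1 strain, all tissues were mixed, and no untagged strain was analysed here, so binding cannot be placed in a cell type.

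A gene was counted as having a region when that region's summit, its point of highest signal, fell in a window that opens 1000 bp before the annotated 5′ end of the gene and closes 500 bp past it. Regions came from a list thresholded for reproducibility (2940 peaks), from the list called on the pooled libraries (30000 regions, most of them weak) and from the lists of replicate 1 (30000) and replicate 3 (24854). The thresholded list rested far more on replicate 1, since 99.7% of its peaks overlapped a region of replicate 1 and 58.7% a region of replicate 3. The signal of a region is the submitters' value for its strength. Its scale is that of its own list, so signals were compared across lists only by their place within each list. The lists hold no read counts, and the depth of the libraries is unknown. With 1 group and with genes that are not replicates, no difference was tested, and the intervals given are exact binomial (Clopper-Pearson) 95% intervals that cover the counting of genes or summits only. The labels call the libraries biological replicates and name different sources for the worms, but do not say whether the cultures were separate.

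The sequences below are the 101 bases centred on 3 of the 4 thresholded summits near ligand-like genes and on 3 summits of weaker, pooled regions at patched-like genes. These 3 patched-like summits are examples and not the 3 strongest of their group, though that of ptr-6 is the strongest. The ptr-4 summit of signal 24.7, with no GATA site within 50 bp, is not printed, and that of ptr-13 is faint (10.6). Each reads 5′ to 3′ on the strand of its gene, in ce11. The coordinates are chrX:5854562-5854662 (minus strand) for hog-1, chrIII:9119036-9119136 (minus) for grl-11, chrIV:9477697-9477797 (minus) for wrt-3, chrII:5246888-5246988 (minus) for ptr-6, chrII:12965727-12965827 (plus) for ptr-18 and chrII:11162457-11162557 (minus) for ptr-13. Capitals mark GATA sites, searched on both strands as AGATAA and AGATAG as well as TGATAA and TGATAG, so that a site on the other strand appears as its reverse complement (TTATCT for AGATAA and likewise CTATCA for TGATAG).
hog-1: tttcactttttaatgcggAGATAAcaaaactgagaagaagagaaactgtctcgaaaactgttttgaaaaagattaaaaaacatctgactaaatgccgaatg
grl-11: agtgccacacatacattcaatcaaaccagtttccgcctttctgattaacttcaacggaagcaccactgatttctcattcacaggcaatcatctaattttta
wrt-3: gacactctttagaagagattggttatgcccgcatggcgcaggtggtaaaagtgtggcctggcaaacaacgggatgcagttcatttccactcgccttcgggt
ptr-6: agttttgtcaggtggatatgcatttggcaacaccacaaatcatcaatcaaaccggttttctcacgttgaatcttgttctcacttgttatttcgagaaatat
ptr-18: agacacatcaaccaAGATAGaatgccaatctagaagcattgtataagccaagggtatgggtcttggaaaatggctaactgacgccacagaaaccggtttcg
ptr-13: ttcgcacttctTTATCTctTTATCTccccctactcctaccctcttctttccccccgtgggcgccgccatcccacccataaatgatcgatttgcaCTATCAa
Of the 3 thresholded summits printed, only that of hog-1 held a GATA site, and of the printed patched-like summits ptr-18 held 1 and ptr-13 held 3. Over all 23 patched-like summits in the pooled list, 26.1% held a site, against 24.4% of pooled summits in the window of any coding gene.

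Thresholded peaks near members were few and lay at ligand-like genes alone. They were found at grl-11, grl-26, hog-1 and wrt-3, which is 4 of 85 members (4.71%, interval 1.30 to 11.6), against 9.4% of all coding genes. Among ligand-like genes the share was 6.78% (4 of 59, interval 1.88 to 16.5), and among patched-like genes it was 0 of 26, for which the interval reaches 13.2%. The background of 9.4% lies inside each of these intervals. Peaks that overlapped a region of each replicate were at 2 members, hog-1 and wrt-3 (2.35%), against 5.47% of coding genes. All 4 peaks ranked in the weaker part of the thresholded list, from 1514 to 2869 of 2940. None was among its 1470 strongest, which lay in the windows of 5.01% of all coding genes.

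The peak of highest signal near a member lay 722 bp upstream of grl-11, which encodes a ground-like secreted protein, at chrIII:9118911-9119260. Its signal was 52.7 in the pooled list (rank 1514) and 46.6 in replicate 1 (rank 1733), and replicate 3 had no region in the grl-11 window. The summit lay outside coding genes, in the intergenic stretch between grl-11 and ced-11, and was closer to the 5′ end of ced-11 (470 bp) than to that of grl-11. Both genes were therefore credited with this 1 peak, and grl-11 lost it when each summit was given to the nearest 5′ end only.

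The peak of hog-1, the gene named for a protein that has the Hog module without one of the cysteine-rich domains, lay 349 bp upstream at chrX:5854437-5854786. It had signals of 47.7 in the pooled list (rank 1811) and 43.8 in replicate 1 (rank 1924). In replicate 3 a region with its summit 400 bp upstream overlapped it, but at a signal of 2.23 it ranked 21769, near the bottom of that list, and another region with its summit 158 bp downstream of the 5′ end was stronger (3.65, rank 9255). Of the 4 peaks, that of hog-1 was the only one with a GATA site within 50 bp of its summit, on the stretch printed above. By comparison, such a site was held by 34.8% of all 2916 nuclear thresholded summits and by 28.3% of the 1456 in the window of any coding gene.

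The other peaks, at grl-26 and wrt-3, lay beside genes for small structural RNAs. At grl-26 the summit was 95 bp downstream of the 5′ end, in the annotated 5′ untranslated region (chrIV:322544-322893), and 16 bp from a tRNA gene. Its signal was 39.2 in the pooled list (rank 2425) and 34.9 in replicate 1 (rank 2671, with the summit 168 bp downstream, inside the tRNA gene), and replicate 3 had no region in the window. At wrt-3, which encodes a warthog protein, the summit was 291 bp upstream of the 5′ end, in an intron of the neighbouring gene cng-3 (chrIV:9477572-9477921), and 48 bp from the snoRNA gene F38E11.14. Its signal was 34.7 in the pooled list (rank 2869) and 29.7 in replicate 1 (rank 3310), and an overlapping region of replicate 3 had a signal of 4.04 (rank 7195). Of those 1456 summits, 4.33% lay within 100 bp of a tRNA, snoRNA, snRNA or rRNA gene, against 2 of the 4 at members. The part of these RNA genes in the peaks was not tested.

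No patched-like gene had a thresholded summit in its window, but some came close by signal or by position. By signal, the nearest was ptr-6, with a summit 101 bp upstream and signals of 30.1 in the pooled list (rank 3484) and 32.6 in replicate 1 (rank 2897), while in replicate 3 its region had a signal of 3.59 (rank 9681). The lowest signal in the thresholded list was 34.2, and wrt-3, at 34.7, was the member just inside it. By position, the nearest was ptr-13, where a thresholded peak of signal 55.5 had its summit 1002 bp upstream, against 722 bp for grl-11 inside the window. A window reaching 2000 bp upstream gave 3 patched-like genes, ptr-13, ptr-23 and ptr-25, and 6 ligand-like genes, the additions being grl-17 and wrt-1, against 12.4% of all coding genes.

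**Figure D1:**
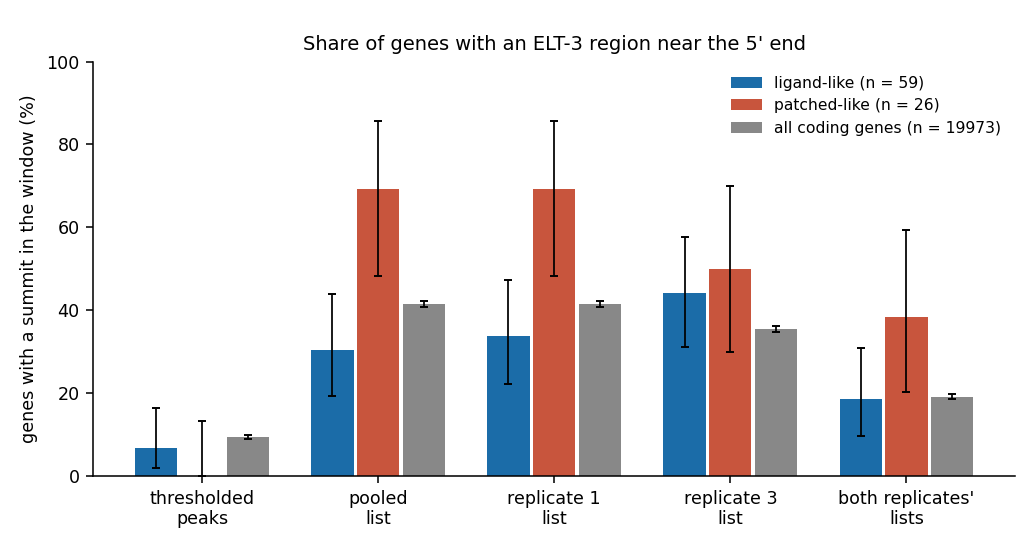
Share of genes (%) with a summit in the window round the 5′ end in each of the lists, for 59 ligand-like genes, 26 patched-like genes and all 19973 coding genes; bars are shares and lines exact 95% binomial intervals. Patched-like genes stood at 69.2% in the pooled list and at 0% among thresholded peaks, and ligand-like genes at 30.5% and 6.78%.

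In the longer lists the patched-like genes more often had a region than the ligand-like genes. In the pooled list, 30.5% of ligand-like genes (18 of 59, interval 19.2 to 43.9) and 69.2% of patched-like genes (18 of 26, interval 48.2 to 85.7) had a region, against 41.6% of all coding genes. All members together were at 42.4% (36 of 85), close to the background, which lay inside the ligand-like interval and below the patched-like one. The list of replicate 1 gave 33.9% of ligand-like genes (20 of 59) and 69.2% of patched-like genes (18 of 26), against 41.5% of coding genes. The list of replicate 3 gave 44.1% (26 of 59) and 50% (13 of 26), against 35.4% of coding genes. The patched-like share was above the ligand-like share in both libraries, but its interval lay above the background in replicate 1 only (48.2 to 85.7), and held the background in replicate 3 (29.9 to 70.1). Ligand-like genes were below coding genes in general in replicate 1 and above them in replicate 3, in each case with the background inside the interval (22.1 to 47.4 in replicate 1, 31.2 to 57.6 in replicate 3). A region was missing from the lists of both replicates at 40.7% of ligand-like genes (24 of 59) and 19.2% of patched-like genes (5 of 26), against 42.2% of coding genes.

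The patched-like share came down to the background among strong pooled regions, where it was still above the ligand-like share. With only the 10000 pooled regions of highest signal, 13.6% of ligand-like genes (8 of 59) and 23.1% of patched-like genes (6 of 26) had a region, against 23% of coding genes. Where a member had any pooled region, the median signal of its strongest was 11.1 for 18 ligand-like genes and 10.4 for 18 patched-like genes, against 14.4 for the 8306 coding genes with a region. In replicate 3 the order was another: the median of the strongest signal was 2.84 for ligand-like genes and 3.85 for patched-like genes, against 3.43 for coding genes.

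The families also differ in how their genes are laid out. The median distance upstream to the next coding gene was 1078 bp for ligand-like genes and 5175 bp for patched-like genes, against 937 bp for all coding genes. Among genes with at least 2000 bp of such distance, pooled regions were found at 41.2% of ligand-like genes (7 of 17) and 77.8% of patched-like genes (14 of 18), against 37.3% of coding genes. Among genes with 500 to 2000 bp, it was 20.8% (5 of 24) and 50% (4 of 8), against 41.2%. Chromosome V held 28 of the ligand-like genes, and on it 32.1% of all coding genes had a pooled region. Away from chromosome V the shares were 38.7% of ligand-like genes (12 of 31) and 63.6% of patched-like genes (14 of 22), against 44.7% of coding genes. Some of these divisions held few genes. By single chromosome, the patched-like share was lower on III, at 1 of 3 against 2 of 4 ligand-like genes and 53.8% of coding genes. It was higher on each of the others, though close on X (1 of 3 against 3 of 10, with 42.1% of coding genes). The part of gene layout in the family difference was not tested. No patched-like gene had less than 500 bp.

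Among the wrt genes, 6 of 10 had a pooled region (interval 26.2 to 87.8, which holds the 41.6% of all coding genes), 7 of 10 had one in replicate 1 (against 41.5%) and 5 of 10 in replicate 3 (against 35.4%). Beside wrt-3, the highest was wrt-10, with a summit 49 bp upstream (18.2, rank 6233). It had 20.5 in replicate 1 (rank 5035) and 3.29 in replicate 3 (rank 11543). Next was wrt-8 (9.70, rank 15121), with 9.81 in replicate 1 (rank 12066) and no region in replicate 3. The wrt-10 region also fell in the window of its neighbour ZK1290.13. For wrt-9 and wrt-2 the pooled signals were 6.83 and 6.68, near the lowest in the list, 5.91. The window of wrt-1 was faint in the pooled list (6.59, rank 26296) and in replicate 1 (7.69, rank 16999), but held a summit 65 bp upstream that ranked 1270 in replicate 3 (signal 6.71). No list gave a region at wrt-4 or wrt-7.

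Only grd-10 of the 16 groundhog genes had a pooled region (6.25%, interval 0.158 to 30.2), against 41.6% of all coding genes, and its signal was 6.35 (rank 27475). That summit lay 880 bp upstream, in a coding exon of the neighbouring groundhog gene grd-3. It was nearer to the 5′ end of grd-3 (520 bp), but just past the grd-3 window, which closes at 500 bp. Replicate 1 gave regions at grd-10 (6.66, rank 20545) and grd-2 (5.26, rank 27302). Replicate 3 gave them at grd-15 (5.11, rank 3571), grd-9 (4.92, rank 4059), grd-6 (2.17, rank 22581) and grd-5 (2.02, rank 24584). No groundhog gene therefore had a region in both libraries. No region in any list had its summit in the windows of 10 of the 16. These were grd-1, grd-3, grd-4, grd-7, grd-8, grd-11, grd-12, grd-13, grd-14 and grd-16. Over all coding genes, 39.9% had no region in any list, against 62.5% of the groundhog genes (interval 35.4 to 84.8).

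For the ground-like genes, the largest family, 10 of 31 had a pooled region (32.3%), against 41.6% of all coding genes. After grl-11 and grl-26 came grl-15 (14.01, rank 8658), grl-19 (13.5, rank 9126), grl-4 (13.4, rank 9177) and grl-9 (11.3, rank 11841). In replicate 1 these 4 stood at 8.19, 10.01, 12.02 and 7.92 (ranks 15611, 11755, 9212 and 16325). In replicate 3 the same 4 stood at 2.04, 4.53, 2.25 and 2.27 (ranks 24310, 5208, 21537 and 21307). The regions of the libraries overlapped at grl-15, grl-4 and grl-9, which ranked between 21307 and 24310 in replicate 3. They did not overlap at grl-19, where the summit was 377 bp downstream of the 5′ end in replicate 1 and 617 bp upstream in replicate 3 (rank 5208). At grl-9 both pooled summits, 60 and 261 bp upstream, held a GATA site. The grl-15 summit, 2 bp upstream of the 5′ end, was shared with fbxa-89. In replicate 3, 16 of 31 ground-like genes had a region (51.6%), against 35.4% of all coding genes, with the background inside the interval (33.1 to 69.8). None of these regions was among the 2940 strongest of replicate 3, and grl-29 and grl-30, which are transcribed away from each other, shared 1 of these regions. The 11 ground-like genes with no region in any list included grl-2, grl-5, grl-6, grl-12, grl-14, grl-16, grl-18, grl-20, grl-21 and grl-22.

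The quahog gene qua-1, whose loss disturbs molting, had no region in its window in any list. Its nearest pooled summit was 1304 bp downstream of the 5′ end (6.84) and its nearest thresholded summit was 13599 bp upstream. Its window nonetheless held 6 GATA sites. The 10 genes whose proteins carry a Hog module (wrt-1, wrt-4, wrt-6, wrt-7, wrt-8, grd-1, grd-2, grd-11, qua-1 and hog-1, a list from general knowledge) had pooled regions at 3, those of wrt-1, wrt-8 and hog-1, and the other 49 ligand-like genes at 15 (30.6%), against 41.6% of all coding genes, which lies inside the interval for the 10 (6.67 to 65.2).

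**Figure D2:**
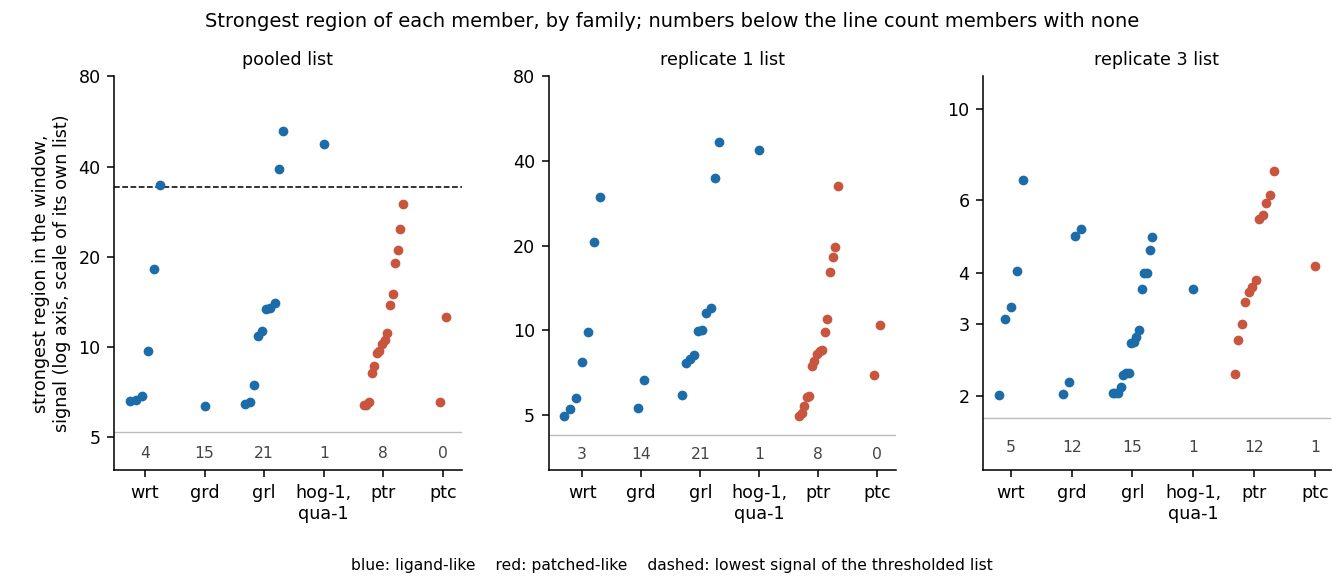
Signal of the strongest region in the window of each member, by family, in the pooled list and in the list of each replicate (log axes, each on the scale of its own list); points are genes, and the numbers under the grey line count members with no region. Ligand-like genes alone rise above the dashed line at 34.2, the lowest thresholded signal, and 15 of 16 grd genes have no pooled region.

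The patched-like genes had regions at 16 of 24 ptr genes and at both ptc genes in the pooled list. After ptr-6, the highest pooled signals were those of ptr-4, 761 bp upstream (24.7, rank 4391), ptr-18, 231 bp downstream in an intron (21.1, rank 5245), and ptr-11, 941 bp upstream (19.0, rank 5923). In replicate 1 the regions of these 3 genes were at 18.2 (rank 5700), 16.2 (rank 6448) and 19.7 (rank 5226). In replicate 3 the strongest region of ptr-4 was at 7.05 and ranked 1049, that of ptr-18 at 3.40 ranked 10837, and that of ptr-11 at 5.91 ranked 2137. The strongest summits of replicate 3 lay 542 bp upstream of ptr-4 and 27 bp downstream of the 5′ end of ptr-11. A weaker summit of replicate 3 lay 750 bp upstream of ptr-4 (3.73, rank 8822), near the pooled one. The ptr-11 summit 941 bp upstream was also in the window of cest-27.

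The Patched receptors proper carried weak regions. At ptc-1, which acts in germline cytokinesis, summits lay 258 bp upstream in the pooled list (12.6, rank 10055) and 293 bp upstream in replicate 1 (10.4, rank 11121). Replicate 3 had summits 362 bp upstream (3.77, rank 8601) and 243 bp downstream (4.16, rank 6681). At ptc-3, an essential gene with roles in the epidermis and in osmotic control, an intronic summit 341 bp downstream had a pooled signal of 6.54 (rank 26521) and held 1 GATA site. Replicate 1 gave it 6.93 (rank 19488) and a further region 150 bp upstream 6.49 (rank 21259), and replicate 3 gave none. A thresholded peak of signal 34.3 lay 2374 bp upstream of ptc-3, with 1 GATA site. No region in any list was found at ptr-9, ptr-17, ptr-19, ptr-20 or ptr-24.

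The libraries named different members among their strongest regions, though each named few. A region in the lists of both replicates was found at 18.6% of ligand-like genes (11 of 59) and 38.5% of patched-like genes (10 of 26), against 19.1% of all coding genes. Of these 21 members, 15 had regions of replicate 1 and replicate 3 that overlapped each other (71.4%, against 71.9% of the 3821 coding genes with both). Taking from each replicate as many of its strongest regions as the thresholded list holds, replicate 1 named 4 members, grl-11, hog-1, grl-26 and ptr-6, against 9.42% of coding genes. Replicate 3 named 5, ptr-4, wrt-1, ptr-15, ptr-11 and ptr-23, against 5.87%. No member was named by both. Over all coding genes 488 were, which is 25.9% of those named by replicate 1 and 41.6% of those named by replicate 3. With only 4 and 5 members named, the absence of a shared one cannot be weighed against these shares. In replicate 1 the named members were 5.08% of ligand-like genes (3 of 59, interval 1.06 to 14.1) and 3.85% of patched-like genes (1 of 26, interval 0.0973 to 19.6). In replicate 3 they were 1.69% of ligand-like genes (1 of 59, interval 0.0429 to 9.09) and 15.4% of patched-like genes (4 of 26, interval 4.36 to 34.9). With the 10000 strongest regions of each replicate, 5 members had a region in both (5.88%), against 7.47% of coding genes.

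**Figure D3:**
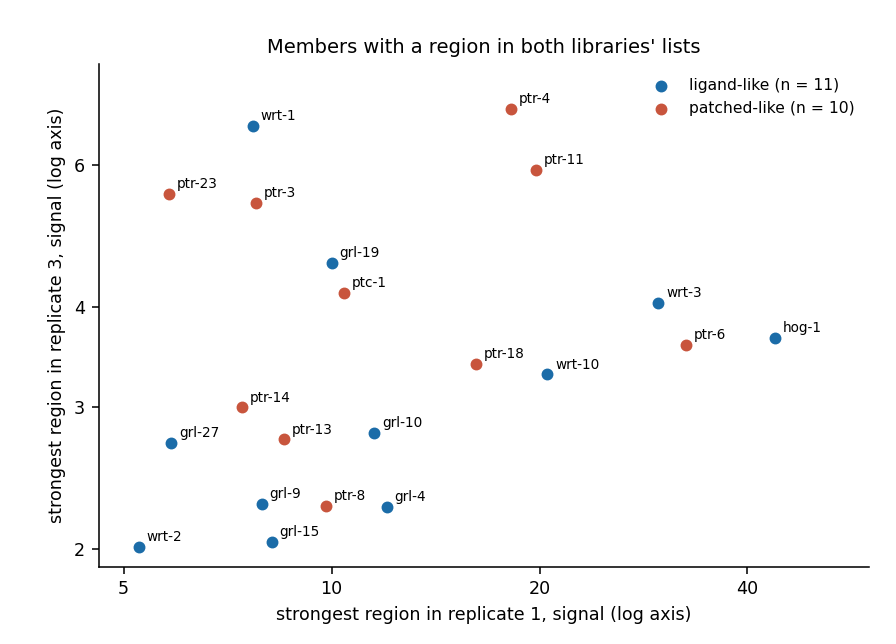
Signal of the strongest region in the window in replicate 1 (x axis, log) and replicate 3 (y axis, log) for the 11 ligand-like and 10 patched-like genes with a region in both lists; each point is a gene. The genes highest in replicate 1 (hog-1 at 43.8, ptr-6 at 32.6, wrt-3 at 29.7) are in the middle of replicate 3. Those highest in replicate 3 (ptr-4 at 7.05, wrt-1 at 6.71) are not the highest in replicate 1. The values of a gene can come from regions that do not overlap. For hog-1, the replicate 3 region that overlaps its replicate 1 region has a signal of 2.23, below the 3.65 plotted.

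GATA sites were present in nearly all windows, with or without a region. Windows with at least 1 site were found for 93.2% of ligand-like genes (55 of 59) and 96.2% of patched-like genes (25 of 26), against 96.1% of all coding windows of the same length, and the median was 4 sites in each of these groups. Of the 49 members with no pooled region, 47 had a site in the window. At the pooled summits themselves, a site within 50 bp was found at 18.2% of 22 ligand-like summits and 26.1% of 23 patched-like summits, against 24.4% of the 9305 pooled summits in the window of any coding gene. The patched-like summits with sites were those of ptr-18, ptr-13, ptr-15 (457 bp upstream), ptr-4 (62 bp upstream), ptr-14 and ptc-3. At ptr-13 the 3 sites lay at a faint summit 26 bp upstream of the 5′ end (10.6, rank 13150), with the pair TTATCT in the printed stretch 2 bases apart. GAGAGA, searched on both strands, was at 3 of the 45 member summits in the pooled list (6.67%), against 12.4% of pooled summits in coding windows. Neither library alone gave a lower share at members. It was 12.8% against 12.6% in replicate 1 and 11.6% against 7.74% in replicate 3.

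**Figure D4:**
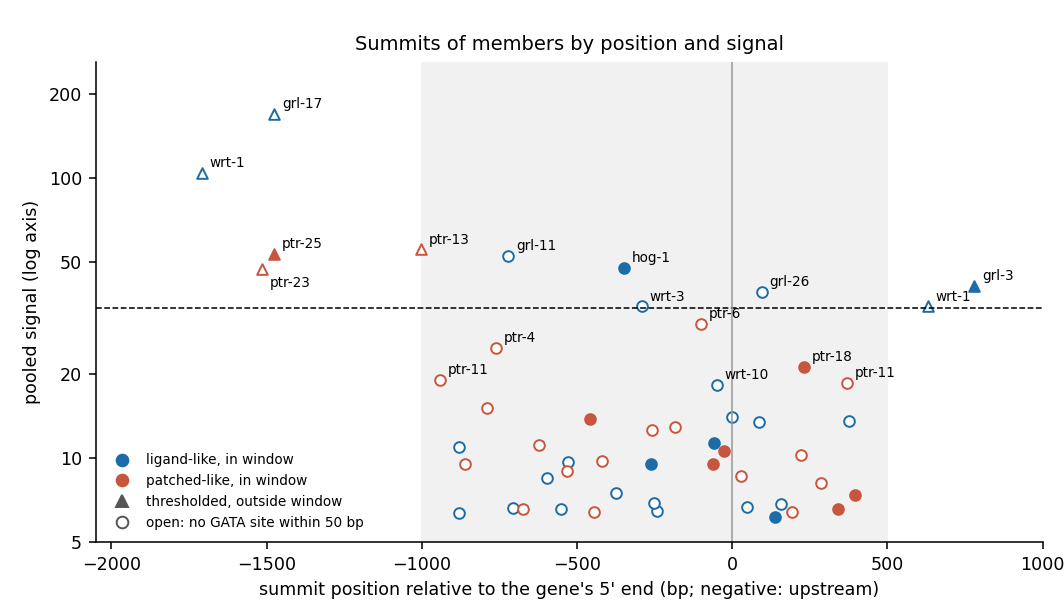
Position of each summit relative to the 5′ end of the member (x axis, bp) against its pooled signal (y axis, log); circles are pooled summits inside the window (grey band), triangles thresholded summits outside it, and filled symbols hold a GATA site within 50 bp. The 4 ligand-like peaks stand above the dashed line at 34.2, hog-1 alone of them filled, and ptr-13 lies 2 bp beyond the window.

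Further thresholded peaks lay within member genes or up to 5000 bp upstream of them, outside the window. Counting these with the window, 16.9% of ligand-like genes (10 of 59) and 26.9% of patched-like genes (7 of 26) had a thresholded summit, against 20.7% of coding genes. Around ptr-13 there were 3: the one 1002 bp upstream, one 4814 bp upstream that lay in a snoRNA gene (49.1) and one in an intron 4647 bp downstream that lay in a tRNA gene (35.5). The strongest summit of this kind, 1476 bp upstream of grl-17, had a signal of 168.7 (rank 90), overlapped a region of each replicate and was nearer to the 5′ end of slrp-1. The highest at a patched-like gene was in a coding exon of ptr-12, 7490 bp downstream, with 2 GATA sites (110.3, rank 288), and was nearer to the 5′ end of fbp-1 (1680 bp). At wrt-1 summits of signal 104.4 and 116.9 lay 1709 and 2583 bp upstream, both nearer to the 5′ end of ZK1290.5. Another, of 34.7, lay in an intron 629 bp downstream. Of the 19 such summits, 8 held a GATA site. The nearest coding 5′ end was that of the member for 2 of 9 summits near ligand-like genes and 7 of 10 near patched-like genes. The genes in this paragraph, and ptr-13, ptr-14, grl-29, grl-30 and the groundhog genes with a region in a single replicate above, were picked out after their values had been seen.

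A list of 10 other genes of the pathway held a similar mix of weak regions and none. None of the 10 had a thresholded peak in the window, against 9.4% of coding genes, and 4 had a pooled region there, against 41.6%. At hmgr-1, which encodes the sterol-synthesis enzyme HMG-CoA reductase, a summit 694 bp upstream had a pooled signal of 28.4 (rank 3758). It was shared with eco-1, stood at 27.8 in replicate 1 (rank 3587) and had no counterpart in replicate 3. At hhat-1, a relative of the acyltransferase that modifies Hedgehog, the strongest pooled signal was 15.9 (rank 7346). Replicate 1 gave hhat-1 8.30 (rank 15342) and replicate 3 gave it 4.28 (rank 6128). At tra-1, the GLI relative that controls sexual fate, a summit 585 bp upstream with 2 GATA sites had 11.8 in the pooled list (rank 11184). Replicate 1 gave tra-1 11.4 (rank 9852), and replicate 3 gave no region. At scp-1, related to the sterol sensor SCAP, the signal was 8.02 in the pooled list (rank 20120) and 3.65 in replicate 3 (rank 9270). The Niemann-Pick C1 relative ncr-1 had a region in replicate 3 alone (4.08, rank 7003). The Dispatched relatives che-14 and ptd-2, and hhat-2 and ncr-2, had no region in the window in any list. The same held for the patched-related gene daf-6, which shapes glial channels of sense organs. Outside the windows, thresholded summits lay inside ncr-2, 5428 bp downstream of its 5′ end (34.7), and 4661 bp upstream of hhat-1 (53.2).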

How the data were processed

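ELT-3 ChIP-seq of L1 larvae gave 2 libraries in 1 group. Per the deposited manifest, candidate regions were called from the alignments of a library, or of both, with a control, and the thresholded list was derived from those lists; aligner and caller: not given in the sources used here. In the lists, the deposited signal is the strength of a region and the deposited −log10 q-value its significance; only signal and its rank were used. The ce11 lists were used with Ensembl release 115 genes on WBcel235, and sequence came from the RefSeq copy of that assembly. No region ran past a chromosome end. Column 2 plus column 10 gave each summit. A summit could count for several genes. Named were members with thresholded peaks, up to 4 further per family by pooled signal, fixed landmark genes, members with strong regions in a replicate, and those with none. Members, lists and alternatives were chosen with earlier results of these data known. Alternatives were other windows, peak overlap, nearest gene, transcript starts, stronger regions, single replicates and other site searches; those for the pooled counts by family were added after seeing the data. The window count was tested on simulated summits. The sequence at grl-26 is not printed. Python 3.11.15, numpy 2.4.6, pandas 2.3.3, scipy 1.17.1 and matplotlib 3.10.9 were used.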

Additional observations from a re-analysis of the deposited data

How the results depend on the processing

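Thresholded peaks were at 4 members, 4 ligand-like and 0 patched-like. A window reaching 2000 bp upstream gave 9 members (10.6%) and 3 patched-like genes (11.5%), against 12.4% of coding genes. Any overlap of a peak with the window gave 1 patched-like gene (ptr-13, 3.85%), against 10.1%. The 1470 strongest peaks gave 0 members and 0 ligand-like genes, against 5.01%. Peaks overlapped by regions of both replicates, over 1 bp or 50% of the peak, gave 2 members, both ligand-like (hog-1 and wrt-3). Leaving out a replicate gave 4 to 5 members, 1 to 3 ligand-like genes and 1 to 4 patched-like genes. Pooled regions at 36 members became 23 (27.1%) with a window from 500 bp before to 250 bp past the 5′ end, against 31.1% of coding genes. They became 14 (16.5%) with the 10000 strongest regions, against 23%. With those strongest regions, 18 ligand-like genes became 8 and 18 patched-like genes became 6. The narrower window gave 11 patched-like genes, 42.3% against 31.1% of coding genes. The full list of a single replicate, in place of the pooled list, gave 38 to 39 members, 20 to 26 ligand-like genes and 13 to 18 patched-like genes. The 10000 strongest regions of each replicate left 5 of 21 members with a region in both. That was 5.88% of all members, against 7.47% of coding genes. The 1 thresholded member peak with a GATA site became 0 within 25 bp of the summit or with GATAAG only, and 2 within 100 bp or over the whole peak. Fewer regions or a narrower window can only lower a count, and other causes were not tested. The remaining alternatives stayed within 1.5 times the values given. No paired analysis was possible because the libraries form a single group. The unknown depth of the libraries, and counts this small, limit what can be told apart.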
